A study of Vanessa cardui and Junonia coenia with 16 samples.

Results

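The comparison set forewings of the common buckeye butterfly, Junonia coenia, that are labelled as optix knockouts against wild-type forewings. It comprised 4 of the 16 RNA-seq libraries of the series: 2 from wild-type forewings and 2 from forewings labelled optix knockout with large defects. The 4 hindwing libraries of the species, 2 wild type and 2 optix knockout, entered the model to estimate the spread and were used to look up the same transcripts in the other wing. All 8 libraries came from the late pupal stage named for melanin, from larvae of 1 laboratory colony fed artificial diet that contained Plantago lanceolata. The labels, which spell the control "wide type", do not say how the knockout was made in this species, how many animals a library holds or what share of wing cells had lost optix.

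Optix encodes a homeodomain transcription factor. In butterfly wings it is known as a switch for red and orange ommochrome scales, and in the buckeye its loss is known to give dark and blue iridescent wings. Ommochromes and melanins are made late in pupal life by the scale cells that cover the wing, each of which builds 1 scale of chitin and pigment. The comparison asks which transcripts differ in abundance when optix is missing from the forewing.

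Abundance was given as FPKM (fragments normalised for transcript length and library total) for 182199 rows of a transcriptome assembly. A row identifier has a DN number, a c number and a g number. FPKM were summed over rows that share the DN and c numbers, which gave 124280 clusters, and the 17141 clusters that averaged 1 FPKM or more in the 4 forewing libraries were tested. A further 648 clusters lay just under that limit, between 0.9 and 1 FPKM, and 533 just above it, between 1 and 1.1 FPKM. No gene names come with the identifiers. The reference table used, with 15000 genes of another butterfly, Vanessa cardui, contained 0 of them. Optix itself, pigment genes and markers of muscle, blood or tracheal cells were therefore not analysed here. Of the clusters that passed the test, the 2 with the largest rise and the 2 with the largest fall are named here, and the others are described by rank, level and count. In whole-wing RNA, fewer cells of a type and less RNA per cell cannot be told apart.

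The libraries were not equally deep, and 1 of them stood apart. Relative to the shallowest, wild-type forewing 2, depth estimated from low values was 1.36 in wild-type forewing 1 and 2.14 and 2.83 in the knockout forewings. The number of clusters above 0 followed this order, at 22540 and 17911 in the wild types and 26467 and 26702 in the knockouts. Across clusters, Pearson's r of log2(FPKM + 1) was 0.87 between the knockout forewings and 0.66 between the wild-type forewings (n = 17141 clusters, which are not independent replicates). Each forewing library was closest to the hindwing library of its own genotype and number. This r was 0.89 and 0.90 for wild-type forewings 1 and 2, and 0.95 and 0.94 for knockout forewings 1 and 2. There were 86 clusters listed at 0 in wild-type forewing 2 alone and at 10 FPKM or more in each of the other forewings, against 5, 6 and 9 such clusters for wild-type forewing 1 and knockout forewings 1 and 2.

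In the knockout forewing 33 clusters rose and 30 fell, out of 17141 tested (limma, Benjamini-Hochberg adjusted p under 0.05). These 63 calls are 0.368% of the clusters tested, with 0.193% higher and 0.175% lower. Most were listed at 0 in the other genotype. Of the 33 that rose, 25 were listed at 0 in both wild-type forewings, and of the 30 that fell, 18 were listed at 0 in both knockout forewings. Over all 17141 clusters tested, 907 were listed at 0 in both wild-type forewings and 765 in both knockout forewings. A pair of zeros has no gap between replicates, and the test weighs a change against that spread. A high share of such pairs among the calls is therefore partly built in. The calls rest on the spread of all 8 libraries, counted as independent. With the correlation between wings estimated, 44 of the 63 were kept. Each fit that leaves out 1 library has a lone library in 1 group, whose own spread is not measured. A limma fit of the 4 forewing libraries alone called 0 clusters (smallest adjusted p = 0.0973, 1287 clusters at an unadjusted p under 0.05), and leaving out knockout forewing 1 or knockout forewing 2 also ended every call (1162 and 1166 at an unadjusted p under 0.05). Without wild-type forewing 1 there were 283 calls and without wild-type forewing 2 there were 357, of which 41 and 45 were among the 63. The count was 38 without wild-type hindwing 1, 11 without either knockout hindwing and 30 without the filter on low values.

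**Figure D1:**
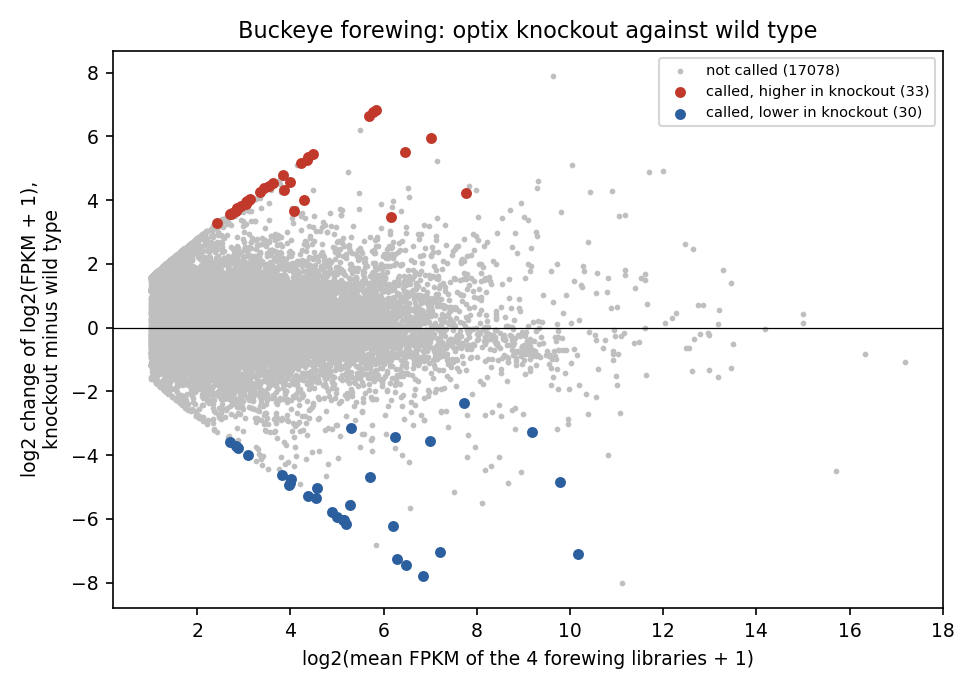
Change of each cluster in the knockout forewing (vertical axis, log2(FPKM + 1), knockout minus wild type, n = 2 libraries per group) against its mean level over the 4 forewing libraries (horizontal axis, log2). Red points are the 33 clusters called higher, blue points the 30 called lower and grey points the 17078 not called; several grey points lie as far from 0 as the coloured ones.

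Among the clusters called, TRINITY_DN94096_c0 had the largest fall. It was at 297 FPKM in wild-type forewing 1 and 160 FPKM in wild-type forewing 2, and it was listed at 0 in both knockout forewings. The wild-type mean was 229 ± 97.3 FPKM (SD, n = 2), and the groups did not overlap. The change was -7.78 on the log2(FPKM + 1) scale (SE 0.78, limma adjusted p = 0.0256), a size that depends on the pseudocount of 1 where a group is at 0. The cluster has 1 row and is the only cluster with its DN number. Wild-type hindwings held 210 and 53.4 FPKM of it and knockout hindwings 0 and 1.68 FPKM (limma adjusted p = 0.0475). Its forewing call was also lost without wild-type forewing 1 or 2, or without knockout hindwing 1 or 2 (limma adjusted p = 0.0799, 0.0508, 0.0772 and 0.0779).

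TRINITY_DN41136_c1 was next among the clusters that fell. It was at 190 and 161 FPKM in the wild-type forewings, a mean of 175 ± 20.4 FPKM (SD, n = 2), and listed at 0 in both knockout forewings. The change was -7.46 (SE 0.52, limma adjusted p = 0.00742). Here the assembly holds a second abundant cluster with the same DN number, which did not pass the test. That cluster measured 152 and 511 FPKM in the wild types against 230 and 283 FPKM in the knockouts (change -0.13, adjusted p = 0.962, limma), with the knockout values inside the wild-type range. The sum over the DN number differed by -0.90 and was not called, so the call concerned 1 cluster and not the total of its DN number.

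Among rises, TRINITY_DN43561_c14 led. It was listed at 0 in both wild-type forewings and stood at 120 and 104 FPKM in the knockout forewings, a mean of 112 ± 11.3 FPKM (SD, n = 2). The change was 6.81 (SE 0.53, limma adjusted p = 0.00953). In the hindwing it was again listed at 0 in both wild types, but the knockouts reached only 24.4 and 8.91 FPKM, just short of the threshold (adjusted p = 0.0504, limma). The difference between the wings did not pass either (2.83 on the log2 scale, unadjusted p = 0.00776, adjusted p = 1, limma). Of the 10 tested clusters with its DN number it was the 1 called. A second cluster with that DN number held 74.4 and 0 FPKM in the wild types against 64.6 and 48.3 FPKM in the knockouts, so among the forewings it was listed at 0 in wild-type forewing 2 alone. It was also listed at 0 in wild-type hindwing 2.

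TRINITY_DN51400_c11 was listed at 0 in both wild-type forewings and stood at 100.1 and 115 FPKM in the knockouts, a mean of 108 ± 10.7 FPKM (SD, n = 2). The change was 6.76 (SE 0.36, limma adjusted p = 0.00689), and it had the smallest adjusted p of the comparison together with 2 others. The hindwings gave the same picture, with 0 FPKM in each wild type and 93.9 and 73.5 FPKM in the knockouts (limma adjusted p = 0.00833). Another 2 of the 11 tested clusters with this DN number rose with it, each listed at 0 in both wild types: 1 reached 40.1 and 38.8 FPKM in the knockout forewings, and the other 8.57 and 13.5 FPKM. The most abundant cluster of the DN number was split by library number and not by genotype. It measured 123 and 2289 FPKM in the wild types against 51.2 and 897 FPKM in the knockouts (change -1.30, adjusted p = 0.847, limma). The sum over the DN number, which includes it, differed by -0.26 and was not called (adjusted p = 0.97, limma).

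**Figure D2:**
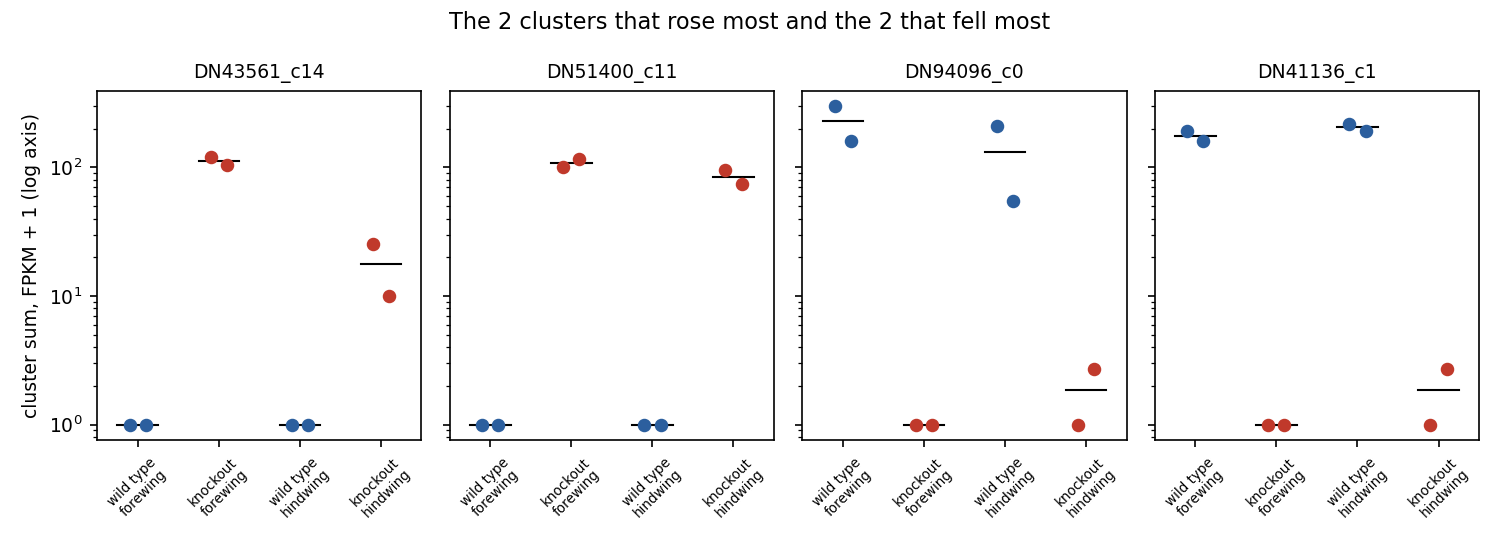
FPKM + 1 (log axis) of the 4 named clusters in each of the 8 buckeye libraries, as points, with a line at the mean of each group of 2. For TRINITY_DN43561_c14 and TRINITY_DN51400_c11 all 4 wild-type libraries are at 0 FPKM (1 on this axis), and for TRINITY_DN94096_c0 and TRINITY_DN41136_c1 both knockout forewings are.

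The clusters that fell were the more abundant set. Their mean level in the wild-type forewing had a median of 69.5 FPKM and ran from 11.0 to 2301 FPKM. In 3 of the 30 it was at least 1000 FPKM, in 8 from 100 to 1000 FPKM and in 19 under 100 FPKM. Summed over the 30 clusters, the level was 8523 and 6796 FPKM in the wild-type forewings and 301 and 283 FPKM in the knockouts. That is 0.719% and 0.602% of all FPKM in wild type and 0.030% and 0.035% in the knockouts. Among the 88 clusters that averaged 1000 FPKM or more in the 4 forewings, 1 was called, a fall. Among the 770 that averaged 100 FPKM or more there were 7 called falls and 2 called rises, together 1.17%.

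The most abundant cluster that fell ranked 51 in the wild-type forewing. It measured 2453 and 2150 FPKM in the wild types against 20.9 and 11.6 FPKM in the knockout forewings, a 142-fold difference of the means (change -7.11, adjusted p = 0.0095, limma). The wild-type hindwings held less of it, 746 and 997 FPKM, a difference between wings that was not tested. The knockout hindwings were as low as the knockout forewings, with 14.9 and 5.03 FPKM.

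The second, of rank 67, measured 2138 and 1292 FPKM in the wild-type forewings against 57.8 and 56.2 FPKM in the knockouts, a 30.1-fold difference of the means. The third, of rank 91, measured 1238 and 879 FPKM against 110 and 102 FPKM, a 9.95-fold difference. These 3 clusters therefore stayed above 0 in every knockout forewing. In all, 12 of the 30 clusters stayed above 0 in a knockout forewing, and for these the means differed by 5.15-fold to 233-fold, with a median of 32.9-fold. The smallest of these falls had close replicates: 343 and 359 FPKM in the wild types against 67.2 and 69.1 FPKM in the knockouts (change -2.35, adjusted p = 0.0432, limma). Over all clusters 13.7% had a change below -1.

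The clusters that rose were at lower levels. Their mean in the knockout forewing had a median of 22.8 FPKM and ran from 8.68 to 412 FPKM, with 7 of the 33 at 100 FPKM or more and 26 below it. Summed over the 33, the level was 44.5 and 37.9 FPKM in the wild types and 1671 and 2015 FPKM in the knockouts, or 0.167% and 0.250% of all FPKM there. The 8 that were above 0 in a wild-type forewing differed by 12.1-fold to 104-fold between the means, with a median of 42.8-fold. The most abundant of them measured 20.9 and 20.1 FPKM in the wild types against 307 and 516 FPKM in the knockouts (change 4.22, adjusted p = 0.0256, limma). The next went from 5.57 and 1.44 FPKM to 201 and 306 FPKM, and the third from 1.86 and 4.01 FPKM to 145 and 199 FPKM. In each of these 3 the lower knockout was many times the higher wild type. For the 25 clusters listed at 0 in both wild types no fold can be given. The wild-type forewings were also the shallower libraries, and the part of depth in these zeros was not tested.

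**Figure D3:**
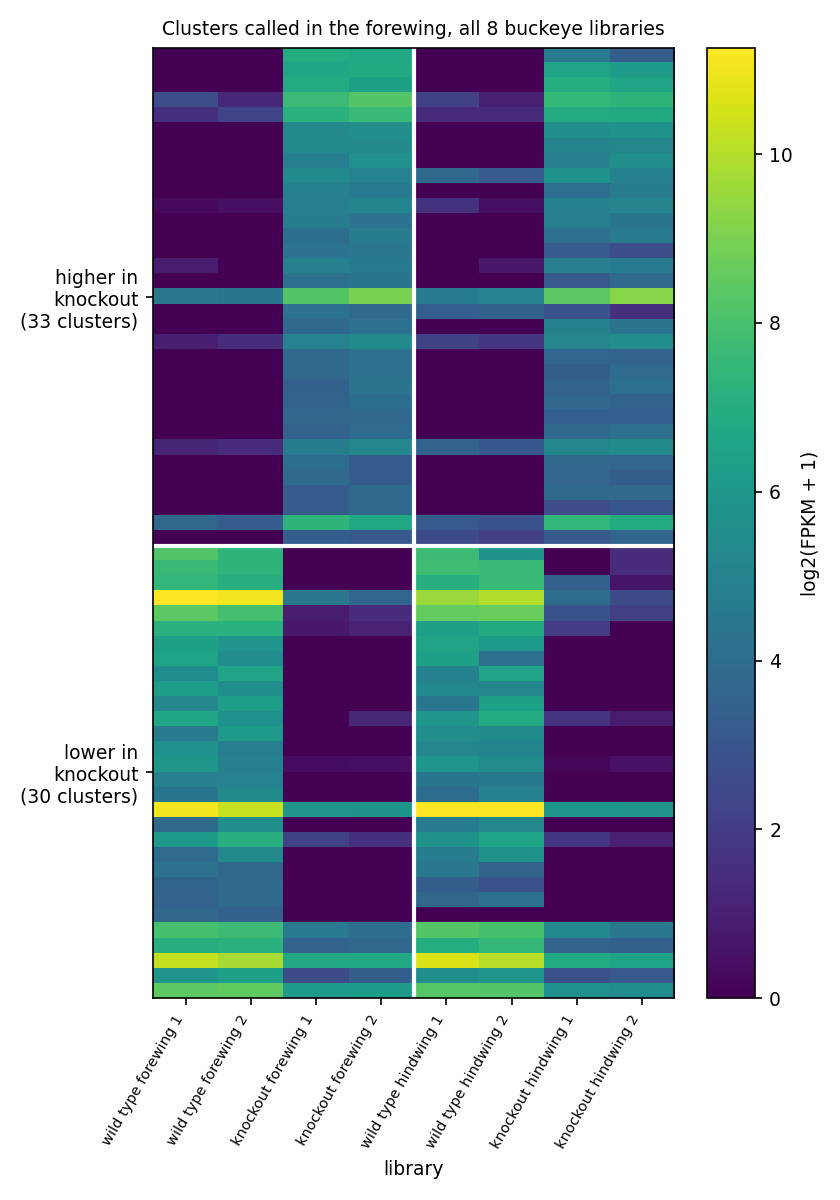
Level of the 63 called clusters (rows, log2(FPKM + 1), colour scale) in each of the 8 buckeye libraries (columns), ordered within each direction by the size of the forewing change. The upper block holds the 33 clusters that rose, dark in the wild types, and the lower block the 30 that fell, dark in the knockouts; the hindwing columns on the right repeat the pattern of the forewing columns with few exceptions.

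The rises and the falls differed in how the assembly holds them. Of the 30 clusters that fell, 21 were the only tested cluster with their DN number. Of the 33 that rose, 4 were, and the other 29 shared it, in DN numbers of up to 15 tested clusters. Among all tested clusters 52.1% shared their DN number with another. A cluster that fell held a median of 100% of the forewing FPKM of its DN number, and a cluster that rose a median of 11.0%. When FPKM were summed over the whole DN number, 15 of the 30 falls were still called, and 2 of the 33 rises. By that sum 18 of 11450 DN numbers were called, 0.157%, with 3 higher (0.0262%) and 15 lower (0.131%). The DN sum contains the called cluster itself, so these calls are not separate evidence. Nor does a lost call always reflect other clusters of the DN number. Several lost falls were the only cluster with their DN number, with the same values in both units. The smallest fall, at -2.35 in either unit, had an adjusted p of 0.0432 as a cluster and 0.0545 as a DN sum (limma). Moderation and adjustment were redone over the 11450 DN numbers. The change of the DN sum ran from -7.78 to -0.50 for the falling clusters and from -0.50 to 5.17 for the rising ones.

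The rest of the DN number, without the called cluster, had members on both sides of 0 for either set. Where it averaged 1 FPKM or more, it was higher in the knockouts for 19 and lower for 11 of 30 rising clusters, with a median change of 0.515 on the log2 scale. For falling clusters it was measurable in 9, lower in 5 and higher in 4, with a median change of -0.11. The median change of all clusters tested was 0.135. The 33 rising clusters lay in 30 DN numbers, so the rests of those that share a number overlap and are not separate cases. In 1 DN number a cluster rose while another fell: the first was listed at 0 in the wild types and measured 12.5 and 16.6 FPKM in the knockouts, and the second measured 11.2 and 14.0 FPKM in the wild types and was listed at 0 in the knockouts. There the DN sum changed by -0.50 and was not called (adjusted p = 0.65, limma).

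Single rows gave more calls than their sums. Of 28084 rows tested by the same model 141 were called, which is 0.502%, with 84 higher (0.299%) and 57 lower (0.203%). Of these rows 64 lay in a called cluster and 77 in a cluster whose sum was not called. For 10 of the 141 rows the sum of the cluster moved the opposite way. Each of the 63 called clusters held at least 1 called row, but 26 of the 33 rises and 21 of the 30 falls have only 1 row. For those the row is the cluster, so this is not separate evidence. Among all tested clusters 62.6% had several rows.

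Most of the clusters called in the forewing were also called in the hindwing. The hindwing libraries are not part of the forewing contrast, but both tests of a cluster use 1 spread estimated from all 8 libraries. The overlap of the calls is therefore not separate evidence. In the hindwing 61 of the 17141 clusters were called (0.356%), 31 higher (0.181%) and 30 lower (0.175%). Of the 33 clusters that rose in the forewing 26 were also called higher in the hindwing, and of the 30 that fell 24 were also called lower. The 50 shared calls are 79.4% of the forewing calls and 82.0% of the hindwing calls. The hindwing count was 0 without any 1 library other than wild-type forewing 2, and 11 without that one (limma, 839 to 1936 at an unadjusted p under 0.05), and 0 in a fit of the hindwings alone. The hindwing values are not an independent repeat. Wings of 1 genotype and number deviated together, with a correlation across clusters of 0.66 for wild types and 0.64 for knockouts between the replicate differences of forewing and hindwing, and the labels do not say whether they came from the same animals. With that correlation estimated in the model, 44 of the 63 forewing calls were kept, 22 in each direction.

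In the hindwing, 32 of the 33 rising clusters did not overlap between the genotypes, in the same direction as in the forewing. The same held for 29 of the 30 falling ones. Over all clusters tested the hindwing groups did not overlap in 22.2% (higher) and 12.8% (lower), and the forewing groups in 23.1% and 15.0%. The exceptions are 1 cluster in each direction. The falling one measured 12.0 and 9.99 FPKM in the wild-type forewings and was listed at 0 in the 6 remaining libraries. The difference of its knockout effect between the wings was not called (unadjusted p = 0.00111, adjusted p = 1, limma), and its forewing call was lost with the estimated correlation (adjusted p = 0.101, limma). The rising one was listed at 0 in each wild-type forewing and measured 17.2 and 13.7 FPKM in the knockout forewings, while in the hindwing the wild types were the higher, at 9.41 and 10.2 FPKM against 6.44 and 1.97 FPKM. Its forewing call was lost with the estimated correlation too (adjusted p = 0.08, limma).

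With this one, 3 of the rising clusters were listed at 0 in both wild-type forewings but above 0 in a wild-type hindwing. In another of the 3 the wild-type hindwings held 13.3 and 8.69 FPKM, and the knockouts 39.9 and 30.7 FPKM in the forewing and 52.0 and 29.8 FPKM in the hindwing. In the last the wild-type hindwings held 4.97 and 3.38 FPKM. No cluster passed the test of a different knockout effect between the wings (limma, 0 of 17141, 251 at an unadjusted p under 0.05). The main fit counts the wings as independent, which overstates the error of a difference between wings that deviate together. With the correlation between wings estimated, 0 passed as well, but 984 were at an unadjusted p under 0.05 (limma, smallest adjusted p = 0.136). The absence of calls does not show that the wings responded alike. Fits without wild-type forewing 1 or 2 leave a lone library in that group, so they cannot decide whether the wings differ.

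**Figure D4:**
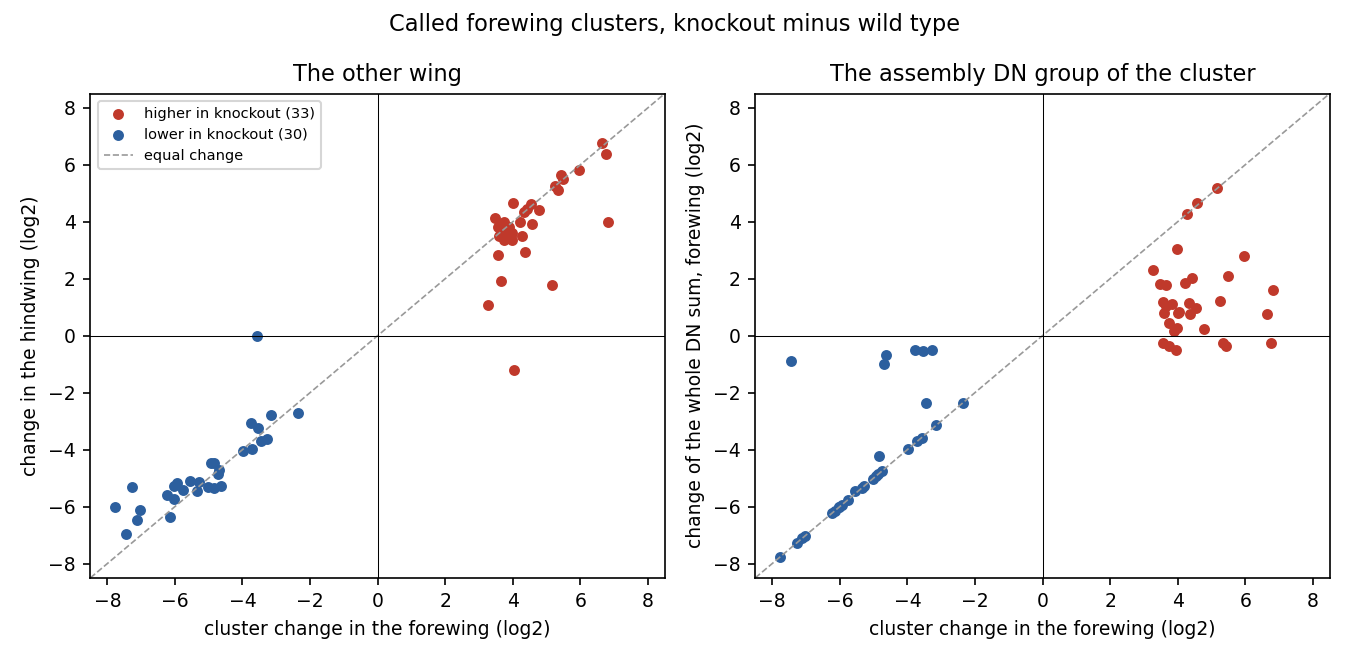
Change of the 63 called clusters in the forewing (horizontal axes, log2, knockout minus wild type) against their change in the hindwing (left) and against the change of the sum over their whole DN number in the forewing (right); the dashed line marks equal change. In the hindwing most clusters lie near the line, and in the DN sums, which include the cluster itself, the falls (blue) lie mostly on it and most rises (red) lie between -0.50 and 3.04.

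Large differences were often not called. A change of at least 4 on the log2 scale was seen for 102 clusters, of which 40 were called, 19 higher and 21 lower, and 62 were not, 29 higher and 33 lower. The larger of the replicate gaps of a cluster had a median of 2.26 (log2) in these 62 and 0.52 in the 63 called clusters. The test weighs a change against the spread of replicates, so a smaller gap in called clusters is built in. The 63 also include clusters with a change under 4. In 43 of the 62 the wild types were further apart than the knockouts. Over all clusters tested the wild types were further apart too, with a median gap of 0.951 against 0.468 (log2). The largest negative change of all was among the 43: 8679 and 135 FPKM in the wild types against 2.81 and 3.77 FPKM in the knockouts (change -7.99, SE 2.29, adjusted p = 0.30, limma). The groups did not overlap, but wild-type forewing 2 lay between wild-type forewing 1 and the knockouts. The largest positive change was not called either: 31.6 and 0.35 FPKM in the wild types against 1705 and 1456 FPKM in the knockouts (change 7.89, SE 1.79, adjusted p = 0.206, limma).

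Over all 17141 clusters the median change was 0.135, and 55.8% had a positive change. This offset was 0.05 with median-of-ratios scaling and 0.02 with quantile normalization, so the balance of the bulk of clusters depends on the scaling. The median gap between replicates was 0.951 (log2) in wild type and 0.468 in the knockouts, and the median size of the change between the group means was 0.654. A gap between single libraries is wider by construction than one between means of 2, so these values are not set against each other.

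The 2 most abundant clusters had lower values in the knockouts but did not pass the test. The cluster of rank 1 measured 170593 and 237581 FPKM in the wild-type forewings against 95494 and 94960 FPKM in the knockouts. It made up 14.4% and 21.1% of all FPKM in wild type and 9.57% and 11.8% in the knockouts (change -1.08, SE 0.59, adjusted p = 0.627, limma). The cluster of rank 2 was at 106480 and 103241 FPKM against 58210 and 60898 FPKM (change -0.82, SE 0.53, adjusted p = 0.654, limma). In both the groups did not overlap, as in 15.0% of all clusters. The cluster of rank 3 was not split by genotype. It measured 41988 and 101400 FPKM in the wild types against 69701 and 122 FPKM in the knockouts, so knockout forewing 2 stood alone. Knockout hindwing 2 was low as well, with 266 FPKM, while knockout hindwing 1 held 73454 FPKM. An exact permutation test of 2 libraries against 2 cannot give a small p, so none is reported for these levels.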

How the data were processed

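RNA-seq was made from poly(A) RNA with paired-end reads, and the authors deposited FPKM values per assembly row and library. Bowtie2 was used per the submitters' processing notes; its version and the quantification program are not stated in the sources used here, nor is any scaling of libraries. The row identifiers have the form that the Trinity assembler writes. FPKM gives no read counts, so counting intervals cannot be given, an exact 0 can be a failed estimate, and a few very abundant transcripts move all other values. Relative depth was taken from the ratio of values under 0.6 FPKM between libraries, over 28 pairs (largest residual 0.08, log2).

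FPKM of rows sharing the DN and c numbers were summed, clusters with a forewing mean of at least 1 FPKM were kept, and log2(sum + 1) was tested with limma 3.58.1 in R 4.3.3. A group-means model of all 8 buckeye libraries was used, moderated by empirical Bayes with a mean-variance trend. P-values were two-sided, with Benjamini-Hochberg adjustment over all clusters and a threshold of 0.05. The model has 4 residual degrees of freedom. This number counts the 2 wings as independent, although their replicate differences correlated at 0.66 in wild types and 0.64 in knockouts. Changes are knockout minus wild type and understate those of low clusters. The procedure was tested on simulated data with independent, normally distributed values. These lacked the exact zeros and the correlation between wings of the real data, so the test does not cover those features. The 2 called clusters with the largest change in each direction are named, and 1 more was singled out after its values were seen. The labels call the libraries biological replicates without naming animals, so p-values measure the spread between these libraries. The comparison and the tests were chosen with earlier results of these data known. Alternatives changed the pseudocount, filter, scaling, block, libraries, moderation and unit.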

Additional observations from a re-analysis of the deposited data

Results flagged for a closer look

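One of the 33 clusters that rose in the forewing, TRINITY_DN50268_c18, went the other way in the hindwing in every library, with a forewing change of 4.03 (limma adjusted p = 0.0498) and a hindwing change of -1.20 (adjusted p = 0.648). Its forewing call did not hold with an estimated correlation (limma adjusted p = 0.08). The difference between the wings was 5.23 on the log2 scale (SE 0.76, unadjusted p = 0.000303) and did not pass the adjustment over all clusters (adjusted p = 1, limma). It was chosen after its values were seen.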

How the results depend on the processing

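The 4 named clusters kept their direction in all 72 values from 18 alternatives and were called in 53 of them. All 4 missed the threshold with only the forewing libraries (limma adjusted p = 0.0973 for each) and without knockout forewing 1 or 2 (adjusted p from 0.223 to 0.341). The forewing count of 63 became 30 without a filter on low values, 0 with only the forewing libraries, 141 for single rows, 18 for sums by DN number, and 0 to 357 without 1 library. The hindwing count of 61 became 21 without a filter, 40 with the estimated correlation between wings, 0 with only the hindwing libraries (1477 at an unadjusted p under 0.05, limma), 124 for single rows, 11 for sums by DN number, and 0 to 11 without 1 library. The count for the difference between the wings was 0 in every alternative that kept all 8 libraries, and 0 to 269 without 1 library. Without both wild-type libraries numbered 2, an alternative chosen after seeing the data, the 3 counts were 482, 137 and 301, with each wild-type group a lone library assumed to vary like the others. Each fit without 1 library also has a lone library in 1 group. The cause of these shifts was not tested. With the replicate block 93 clusters were called in the forewing, 45 higher and 48 lower, 86 in the hindwing and 0 for the difference. Replicate differences correlated at 0.16 between wild-type and knockout forewings and at 0.18 to 0.29 in the other comparisons across genotypes. With 2 libraries per group and labels that name no shared litter, batch or day, whether the numbers pair the samples was not settled. The forewing count was within 1.5 times of 63 with no trend (69), a filter at 5 FPKM (42), quantile normalization (54), a pseudocount of 0.1 (83), the estimated correlation (44) and median-of-ratios scaling (59). Without a hindwing library it was 38 and 43 (wild types 1 and 2) and 11 (either knockout). Depth is known only relative between libraries, so a value of 0 has no stated limit.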
